A study of Rattus norvegicus with 14 samples.

Results

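The BMP ligand genes Bmp2, Bmp4 and Bmp7, the gene of their secreted antagonist noggin (Nog) and the homeobox gene Msx1 were followed in the foreskin of newborn rats after prenatal exposure to an antiandrogen. These 5 genes were taken from the 14497 genes tested, each through the probe set that the array's annotation assigns to that symbol alone. Each of the 5 had 1 such probe set, so no choice between probe sets was needed, and no probe set with several symbols held one of them. The probe sets were 10840138 for Bmp2 (NCBI gene 29373), 10782891 for Bmp4 (25296), 10852106 for Bmp7 (85272), 10746172 for Nog (25495) and 10773252 for Msx1 (81710).

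The animals were Sprague Dawley pups on postnatal day 5. Their mothers had been gavaged every day from gestational day 16 to 20, either with corn oil, the vehicle, or with flutamide at 5 mg/kg/day. Flutamide is a nonsteroidal drug that blocks the androgen receptor. Per the series' title, the study looked for foreskin markers of prenatal dibutyl phthalate exposure, and the comparison described here is that of flutamide with corn oil. Each group held 7 litters, and 1 array was hybridised per litter with RNA from 2 pooled foreskins, so single pups cannot be told apart and the litter was the replicate. Values are log2 intensities after RMA normalisation, on which a difference of 1 is a 2-fold change.

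Bone morphogenetic proteins are secreted ligands of the TGF-beta superfamily. They bind type I and type II receptor kinases, which phosphorylate SMAD1, SMAD5 and SMAD9, and these enter the nucleus with SMAD4 and switch on targets such as the Id and Msx genes. Noggin binds BMP2, BMP4 and BMP7 outside the cell and keeps them from their receptors. In the embryonic genital tubercle, Bmp4 and Msx1 are known from the mesenchyme and Bmp2 and Bmp7 mainly from epithelium, and BMP signalling there restrains outgrowth. In skin, BMP4 and noggin act in opposite ways on hair follicle formation and on the hair cycle.

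The stretches before the annotated starts of Nog and Msx1 are shown because both genes are known to respond to BMP signals. They are the 250 bases upstream of the RefSeq start in the GRCr8 assembly, read 5′ to 3′ on the strand of the gene. Nog lies on the minus strand (chr10:74627502-74627751) and Msx1 on the plus strand (chr14:77185552-77185801). Capitals mark GGCGCC, a motif bound by the SMAD proteins of the BMP pathway.
Nog: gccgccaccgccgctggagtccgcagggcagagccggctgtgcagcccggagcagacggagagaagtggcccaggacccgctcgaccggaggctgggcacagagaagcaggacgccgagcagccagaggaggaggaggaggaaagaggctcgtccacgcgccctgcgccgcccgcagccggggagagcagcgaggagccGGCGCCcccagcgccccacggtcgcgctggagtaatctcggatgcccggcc
Msx1: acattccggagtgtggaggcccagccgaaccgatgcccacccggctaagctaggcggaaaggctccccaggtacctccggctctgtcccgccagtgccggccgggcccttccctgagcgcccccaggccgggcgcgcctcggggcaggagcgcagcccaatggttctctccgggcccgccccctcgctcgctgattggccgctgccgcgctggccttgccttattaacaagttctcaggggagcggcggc
The motif occurred once before Nog, from 51 to 46 bases upstream of the start. It was not in the stretch before Msx1 or in that before Bmp4 (chr15:22101934-22102183, minus strand). The start used for Bmp4 was not at the end of the annotated span of its gene. Of 33469 RefSeq stretches of the same length, 8.69% held GGCGCC on either strand. TGTTCT, the half-site of androgen response elements, was found in none of these 3 stretches and in 17.5% of all. TAATTG, a motif of Msx homeodomains, was likewise in none of the 3 and in 7.31% of all, both searched on either strand. GGCGCC is its own reverse complement, and with this single match no motifs overlapped. All 3 stretches were rich in G and C, at 74.0% for Nog, 71.2% for Msx1 and 66.4% for Bmp4, against a median of 51.2%. The motif shares are over all stretches and not over those of like G and C content.

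None of the 5 genes passed the test between flutamide and corn oil litters. Of the 14497 genes, 1 passed at a limma adjusted p under 0.05, which is 0.0069% of those tested, and it belongs to none of the pathway or marker lists used here. At an unadjusted limma p under 0.05 there were again 0 of the 5 genes, beside 9.16% of all genes, which were 826 higher and 502 lower, or 668 and 641 after centring. The exact permutation test over litters also put 0 of the 5 under 0.05, beside 8.47% of all genes. The difference was above 0 for Bmp4 and Nog and below 0 for Bmp2, Bmp7 and Msx1. Centring the samples on their medians left these signs as they were. For every one of the 5 the groups overlapped, while 0.124% of all genes had groups that did not. The 95% confidence intervals of all 5 lay within a change of 1.5-fold in either direction. The median SE over all genes was 0.073. The share of all genes with such intervals was not counted, so this is not read as a result about the 5. In whole foreskin, fewer cells of a type and less RNA per cell cannot be told apart.

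**Figure D1:**
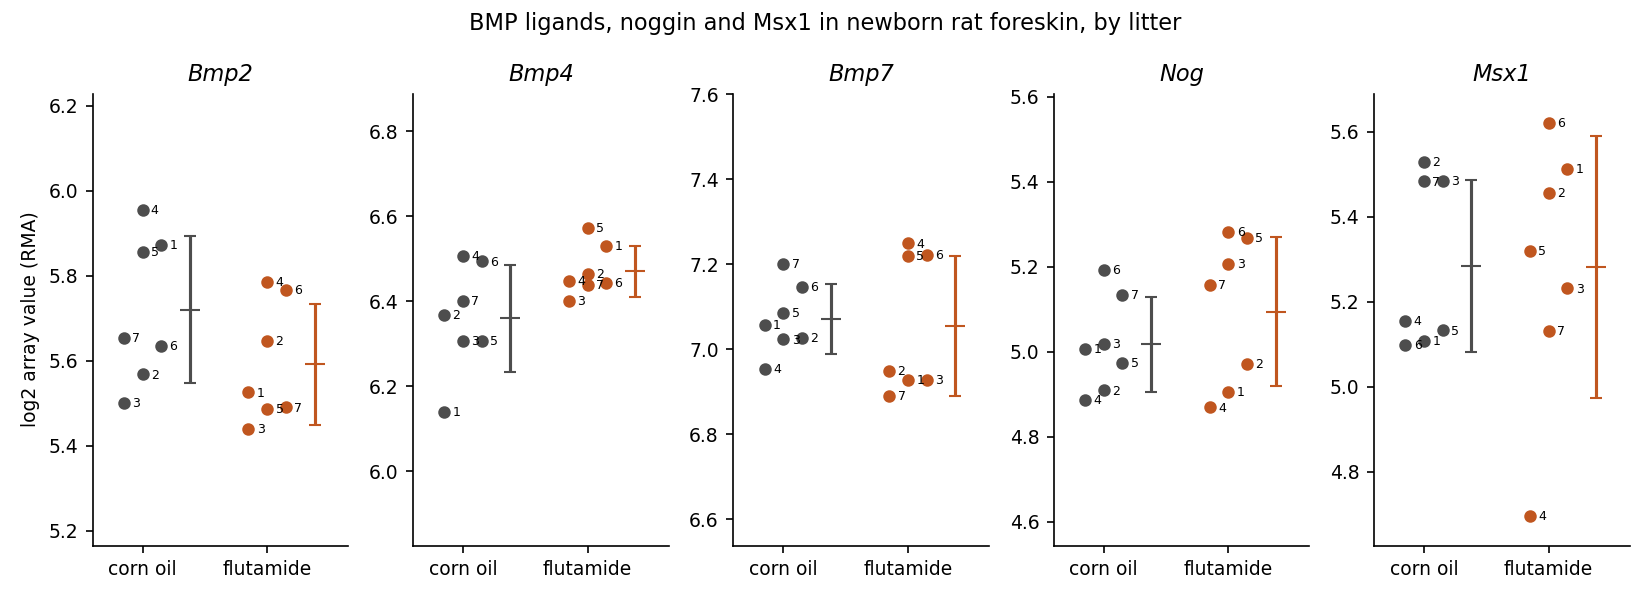
Log2 array values of Bmp2, Bmp4, Bmp7, Nog and Msx1 in 7 corn oil litters (grey) and 7 flutamide litters (orange). Each point is 1 litter with its replicate number, bars give the mean ± SD, and all panels span the same number of log2 units but start at different values. The groups overlap in every panel, and for Bmp7 the flutamide litters lie on both sides of the corn oil litters.

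Bmp4 had the smallest p of the 5. In corn oil litters its values ran from 6.14 to 6.51 with a median of 6.37, and in flutamide litters from 6.40 to 6.57 with a median of 6.45. All 7 flutamide litters were above the corn oil median, 2 of them above every corn oil litter. The means were 6.36 ± 0.13 (SD, n = 7) and 6.47 ± 0.06 (SD, n = 7). The difference of 0.11 (SE 0.06; interval -0.015 to 0.24) is a 1.08-fold level, with a limma adjusted p of 0.605 and an exact permutation p of 0.0524. Corn oil replicate 1 was the lowest litter of all, and without it the difference was 0.074, the least over all single litters dropped, where the most was 0.13. Bmp4 was also the steadiest of the 5 between litters, since 16.9% of all genes had a smaller SD within groups.

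Bmp2, a ligand of hair follicle and bone that is closely related to Bmp4, differed in the other direction. Its values ran from 5.50 to 5.96 (median 5.65) in corn oil and from 5.44 to 5.79 (median 5.53) in flutamide litters. Flutamide replicates 3, 5 and 7 were below every corn oil litter, and none was above the corn oil maximum. The means of 5.72 ± 0.17 and 5.59 ± 0.14 (SD, n = 7 each) gave a difference of -0.13 (SE 0.08; interval -0.30 to 0.039), a 0.915-fold level. The limma adjusted p was 0.658 and the exact permutation p 0.154. Dropping single litters gave differences between -0.16 and -0.089. With the mean of the basal keratinocyte markers as a covariate it was -0.062, and with array SD as a covariate -0.068.

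Bmp7, the ligand that can pair with BMP2 or BMP4 in heterodimers, had nearly equal means but a different spread. Corn oil litters ran from 6.95 to 7.20 with a median of 7.06. Flutamide litters split, with replicates 1, 2, 3 and 7 between 6.89 and 6.95 and replicates 4, 5 and 6 between 7.22 and 7.25. The first 4 were below every corn oil litter and the other 3 above every one, so that no flutamide litter fell inside the corn oil range. Of all genes, 27 had every flutamide litter outside the corn oil range with some on each side, which is 0.186%, and 14 genes had the mirror image. This feature was noticed after the values were seen and was not tested. The means were 7.07 ± 0.08 and 7.06 ± 0.16 (SD, n = 7 each), with a difference of -0.015 (SE 0.07; interval -0.16 to 0.13; limma adjusted p = 0.973). The exact permutation p of the difference was 0.825. The SD of the flutamide litters was 2.0 times that of the corn oil litters, and 7.55% of all genes had a larger ratio, with a median ratio of 1.04. Bmp7 was not alone in having unlike spreads in the groups. Bmp4 went the other way, with less spread in flutamide litters. Its ratio was 0.476, and 4.41% of all genes had a smaller one. The ratio was 0.820 for Bmp2, 1.56 for Nog and 1.52 for Msx1, with 17.8% of genes above Nog and 19.3% above Msx1. Without flutamide replicate 7 the Bmp7 difference was 0.012, so its sign rests on single litters.

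Nog, the antagonist, had values from 4.89 to 5.19 (median 5.01) in corn oil and from 4.87 to 5.28 (median 5.16) in flutamide litters. Flutamide replicates 3, 5 and 6 were above every corn oil litter, and replicate 4 was below every one. The means were 5.02 ± 0.11 and 5.09 ± 0.17 (SD, n = 7 each). Nog was dim. Over all litters it passed a filter at the lower quartile of all genes, 5.046, but its corn oil mean lay below that cut. The difference of 0.077 (SE 0.08; interval -0.082 to 0.24) is a 1.05-fold level, with a limma adjusted p of 0.799 and an exact permutation p of 0.344. It ran from 0.046 without flutamide replicate 6 to 0.11 without flutamide replicate 4.

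Msx1, a transcription factor and target of BMP signals, had equal means and the widest scatter. Corn oil litters fell into 4 between 5.10 and 5.15 (replicates 1, 4, 5 and 6) and 3 between 5.48 and 5.53 (replicates 2, 3 and 7). Flutamide litters were spread from 4.70 to 5.62 with a median of 5.32, the lowest being replicate 4 and the next replicate 7 at 5.13. The means of 5.28 ± 0.20 and 5.28 ± 0.31 (SD, n = 7 each) differed by -0.0032 (SE 0.12; interval -0.25 to 0.25; limma adjusted p = 0.998). The exact permutation p was 0.987. Of all genes, 96.2% had a smaller SD within groups than Msx1. Its means lay above the lower quartile of all genes, 5.046, but flutamide replicate 4 was below that cut. No detection calls were used to tell low signal from none. Without flutamide replicate 4 the difference was 0.094, and without flutamide replicate 6 it was -0.060.

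No pair of the 5 genes passed a test of varying together from litter to litter. Over the 14 litters, after removal of the group means, the 10 pairs had Pearson r from -0.400 for Bmp2 with Msx1 to 0.333 for Bmp7 with Nog. Spearman rho for these pairs was -0.305 and 0.314. Permutation p-values of r were 0.158 and 0.312, and those of rho 0.305 and 0.347. Adjusted over the 10 pairs, the p of r was 0.831 in both cases and that of rho 0.843, and 0 of the 10 pairs passed. Bmp7 with Nog had an r of 0.866 within the corn oil litters and of 0.165 within the flutamide litters, n = 7 each. Without flutamide replicate 4 this r over the other litters was 0.713, and it was 0.207 without flutamide replicate 6. Without the 2 litters farthest from the median of Bmp7, flutamide replicates 4 and 6, it was 0.606. Bmp2 with Msx1 had -0.746 and -0.157 within the groups, and -0.098 once replicate 4 of each group was dropped. Dropping flutamide replicate 6 alone gave -0.631 and dropping flutamide replicate 4 alone -0.199, and with array SD as a covariate it was -0.608. The permutation p adjusted over the 10 pairs was 0.230, 0.933 and 0.231 in these 3 cases. In 6 of the 10 pairs r had the same sign in both groups.

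**Figure D2:**
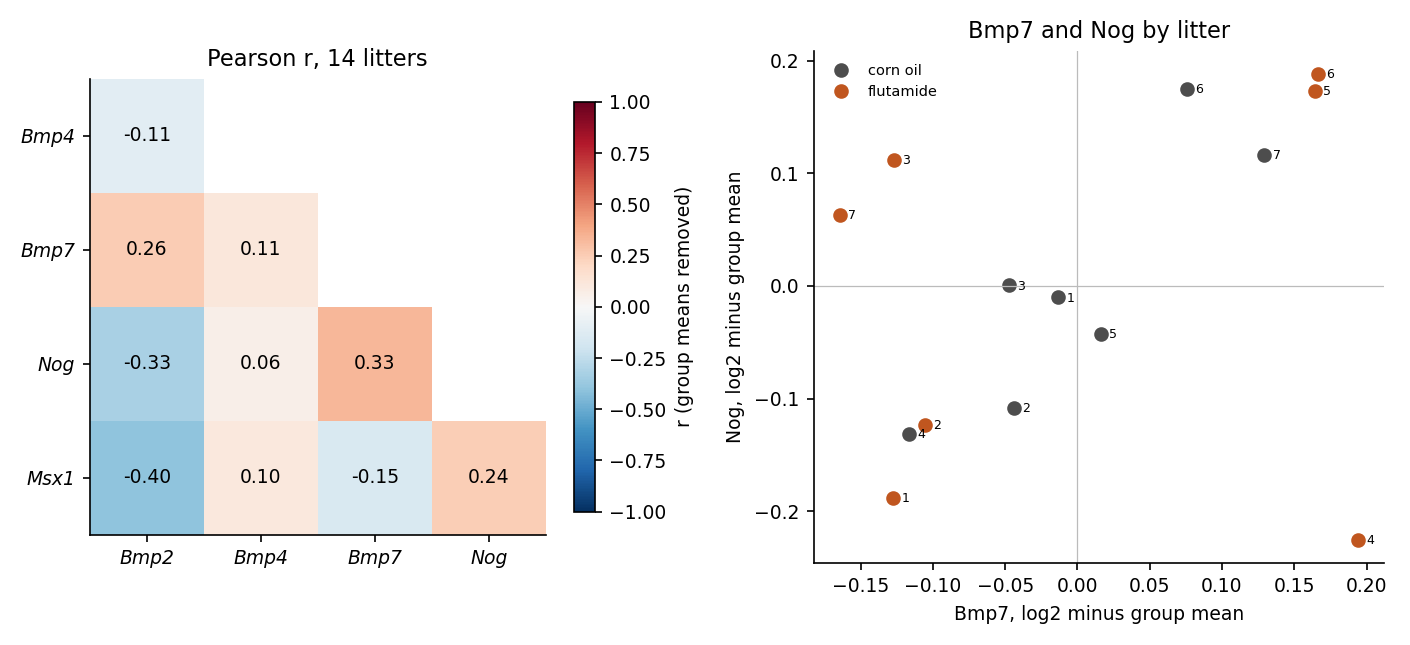
Left, Pearson r between each pair of the 5 genes over 14 litters, on log2 values with the group mean removed. Right, Bmp7 (x) and Nog (y) in each litter as log2 minus the group mean, corn oil in grey and flutamide in orange with replicate numbers; flutamide replicate 4 has the highest Bmp7 and the lowest Nog of its group.

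Some litters stood at an end for several of the genes, while other litters held the remaining ends. How often litters do so over all genes was not counted, and this was not tested. Flutamide replicate 4 had the highest Bmp2 and Bmp7 of its group together with the lowest Nog and Msx1. Flutamide replicate 6 had the highest Nog and Msx1, with Bmp7 at 7.22. Among corn oil litters, replicate 4 had the highest Bmp2 and Bmp4 and the lowest Bmp7 and Nog. No litter was at the same end for all 5 genes.

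For each gene the 3 others with the most similar litter pattern were listed by Pearson r over the 14 litters with group means removed. For Bmp2 these were Vcl, which encodes the adhesion protein vinculin (r = 0.906), Hnrnph3 (0.868) and Anxa2 (0.860). Masp1 (0.883), Gclc (0.860) and Zmat3 (0.858) were the nearest to Bmp4. Those nearest to Bmp7 were Rps6kb2 (0.917), Smarcb1 (0.895) and Ppp6r2 (0.890). Tm4sf4 (0.871), Trappc9 (0.854) and Adh1c (0.846) followed Nog most closely, and Tdp2 (0.874), Abhd17b (0.870) and Rbmx (0.842) followed Msx1. None of these is a BMP pathway gene of the lists below. Such values are usual with 14 litters and this many genes, since the highest r of a gene had a median of 0.885 over all genes. The highest r of Bmp7 was above that of 82.8% of genes and that of Nog above that of 33.9%.

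The rest of the pathway was read from 7 lists of 90 genes by role, of which 71 were measured and 0 passed at a limma adjusted p under 0.05. Of the 71, 40 had a difference above 0 and 31 below, and the median was 0.011, beside 0.0048 and 52.3% above 0 for all genes tested. With samples centred on their medians, 35 were above 0 and 36 below, and the median of all genes was -0.0066. At an unadjusted limma p under 0.05 there were 10 of the 71, or 14.1% beside 9.16% of all genes, 7 higher and 3 lower in flutamide litters. After centring these became 4 higher and 3 lower, and the exact permutation test put 7 of the 71 under 0.05, beside 8.47% of all genes. None of the 71 had groups that did not overlap. All 71 intervals excluded 1.5-fold in both directions. The share of all genes with such intervals was not counted, so this is not read as a result about the lists. The median SE over all genes was 0.073.

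**Figure D3:**
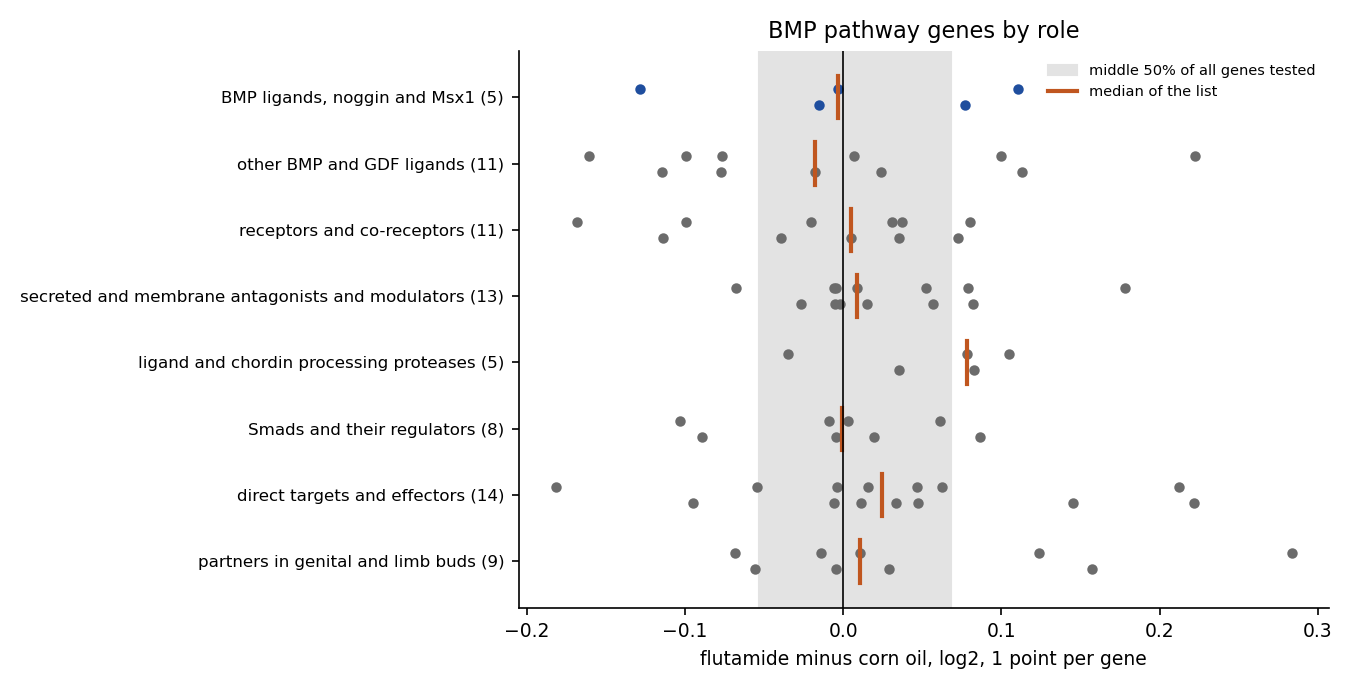
Flutamide minus corn oil difference in log2 (x axis) of each measured gene in the 5-gene group and in 7 pathway lists, 1 point per gene, with list sizes in parentheses. Orange bars are list medians and the grey band holds the middle 50% of all genes tested, from -0.053 to 0.068; the list medians run from -0.018 to 0.078.

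Among 11 other BMP and GDF ligands, 5 were above 0 and 6 below, with a median of -0.018. Bmp8a, a ligand known mainly from germ cells and fat, was below every corn oil litter in 6 of 7 flutamide litters. Its corn oil values ran from 6.03 to 6.21 (median 6.13) and its flutamide values from 5.74 to 6.22 (median 5.94). The difference was -0.16 (SE 0.06; limma adjusted p = 0.467). Gdf9, an oocyte growth factor, had 0.22 (SE 0.10; limma adjusted p = 0.541), with 5 flutamide litters above all corn oil litters and 1 below them. It was 0.12 with the basal keratinocyte mean as a covariate. Gdf9 was dim, with a corn oil mean of 5.046 at the lower quartile of all genes, also 5.046. Bmp5 had -0.11 (SE 0.06; limma adjusted p = 0.607). The count above 0 was 3 without corn oil replicate 4 or without flutamide replicate 3.

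Of 11 receptors and co-receptors, 6 were above 0 and 5 below, with a median of 0.0051. Bmpr1a, the type I receptor of BMP2 and BMP4, had -0.021 (interval -0.14 to 0.096) and Bmpr2, the type II receptor, 0.0051 (interval -0.11 to 0.12). Tgfbr3, the co-receptor betaglycan, was below the corn oil median in all 7 flutamide litters, from 6.97 to 7.26 against 7.16 to 7.41. Its difference was -0.17 (SE 0.06; limma adjusted p = 0.416). Acvr1, a type I receptor of BMP7, had -0.11 (SE 0.06; limma adjusted p = 0.616) and Acvrl1, a type I receptor of endothelium, -0.10 (SE 0.07; limma adjusted p = 0.698). Acvrl1 was -0.052 without corn oil replicate 1 and -0.044 with array SD as a covariate, and Acvr1 was -0.064 with the keratinocyte covariate.

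Antagonists other than noggin numbered 13, of which 7 were above 0 and 6 below, with a median of 0.0085. Nbl1, a secreted antagonist of the DAN family, ran from 5.96 to 6.31 in corn oil and from 6.09 to 6.52 in flutamide litters, 3 of which were above every corn oil litter. Its difference was 0.18 (SE 0.07; limma adjusted p = 0.480). Sostdc1, an antagonist found in skin appendages, had 0.082 (SE 0.06), Grem1, gremlin, 0.079 (SE 0.07) and Chrd, chordin, 0.052 (SE 0.06), with limma adjusted p of 0.701, 0.781 and 0.826. Grem1 was 0.035 without corn oil replicate 1 and 0.12 without corn oil replicate 3. Chrd was 0.035, 0.032 and 0.028 without corn oil replicate 1, corn oil replicate 5 and flutamide replicate 7. With the keratinocyte covariate Sostdc1 was 0.14, Grem1 0.021 and Chrd 0.018. The count above 0 was 11 without corn oil replicate 3, corn oil replicate 6 or flutamide replicate 6. Of 5 proteases that cut BMP precursors or chordin, 4 were above 0, with a median of 0.078. They were led by Pcsk6, a proprotein convertase, at 0.11 (SE 0.06; limma adjusted p = 0.630), with Bmp1, the chordin-cutting protease, at 0.078 (SE 0.06) and its relative Tll1 at 0.083 (SE 0.07). Tll1 was 0.041 without flutamide replicate 6, and with the keratinocyte covariate both Bmp1 and Tll1 were at 0.13.

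The intracellular part of the pathway likewise gave no call. Of 8 Smads and their regulators, 4 were above 0 and 4 below, with a median of -0.00047. The inhibitory Smads, which BMP signals induce as feedback, had 0.087 (SE 0.07; limma adjusted p = 0.760) for Smad6 and 0.061 (SE 0.08; limma adjusted p = 0.846) for Smad7, both too dim to pass a filter at the lower quartile of all genes. Smad6 was 0.038 without flutamide replicate 3. Smad7 ran from 0.031 without corn oil replicate 4 to 0.098 without corn oil replicate 7, moved by over 1.5 times also without corn oil replicate 2 (0.040), flutamide replicate 3 (0.093) or flutamide replicate 6 (0.037), and was 0.12 with the keratinocyte covariate. Smurf2, a ubiquitin ligase that marks Smads and their receptors, was read from the brighter of 2 probe sets, and the mean of both gave -0.062 (limma adjusted p = 0.801). The brighter had -0.10 (SE 0.06; limma adjusted p = 0.619) and was below the corn oil median in all 7 flutamide litters. Smad9, a receptor-activated Smad of the BMP branch, had -0.089 (SE 0.10), or 0.0050 without flutamide replicate 5.

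Of 14 targets and effectors measured, 9 were above 0 and 5 below, with a median of 0.025. At an unadjusted limma p under 0.05 there were 3 higher and 1 lower of the 14, beside 9.16% of all genes, and none passed after adjustment. Tbx3, a T-box factor of limb and gland buds, ran from 5.68 to 6.08 (median 5.89) in corn oil and from 6.0 to 6.16 (median 6.11) in flutamide litters. All 7 flutamide litters were above the corn oil median and 5 above every corn oil litter. The difference was 0.22 (SE 0.06), with a limma adjusted p of 0.304, and dropping single litters gave 0.19 to 0.26. The exact permutation p, not adjusted over genes, was 0.00175, the same as for Msx2. For Hoxd13 it was 0.00699, and 8.47% of all genes had an exact permutation p under 0.05. Id1, an immediate BMP target, ran from 5.47 to 5.64 in corn oil and from 5.47 to 5.92 in flutamide litters, 4 of which were above all corn oil litters. Its difference was 0.14 (SE 0.07; limma adjusted p = 0.541), while Id2 had -0.0038 (SE 0.07) and Id3 0.047 (SE 0.09). Runx2, a bone regulator, had 0.21 (SE 0.09; limma adjusted p = 0.512).

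Msx2, the close relative of Msx1, had a difference below 0. Its values ran from 6.42 to 6.60 in corn oil and from 6.19 to 6.45 in flutamide litters, with 5 flutamide litters below every corn oil litter. The difference was -0.18 (SE 0.05; limma adjusted p = 0.348), against -0.0032 for Msx1, and whether the 2 genes differ in response was not tested. The interval of Msx1, from -0.25 to 0.25, includes the value of Msx2.

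Of 9 genes that act with BMPs in genital and limb buds, 5 were above 0 and 4 below, with a median of 0.011. Hoxd13, a homeobox gene of the genital bud, ran from 5.09 to 5.56 (median 5.28) in corn oil and from 5.36 to 5.73 (median 5.64) in flutamide litters, 5 of which were above every corn oil litter. Its difference was 0.28 (SE 0.08; limma adjusted p = 0.304). Wnt5a, a ligand of the bud mesenchyme, ran from 7.67 to 7.89 in corn oil and from 7.81 to 8.32 in flutamide litters. Its difference was 0.16 (SE 0.07; limma adjusted p = 0.516), or 0.099 without flutamide replicate 6. Fgf8 had 0.12 (SE 0.06; limma adjusted p = 0.570) and Shh, the hedgehog ligand, -0.014 (SE 0.07; limma adjusted p = 0.976).

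**Figure D4:**
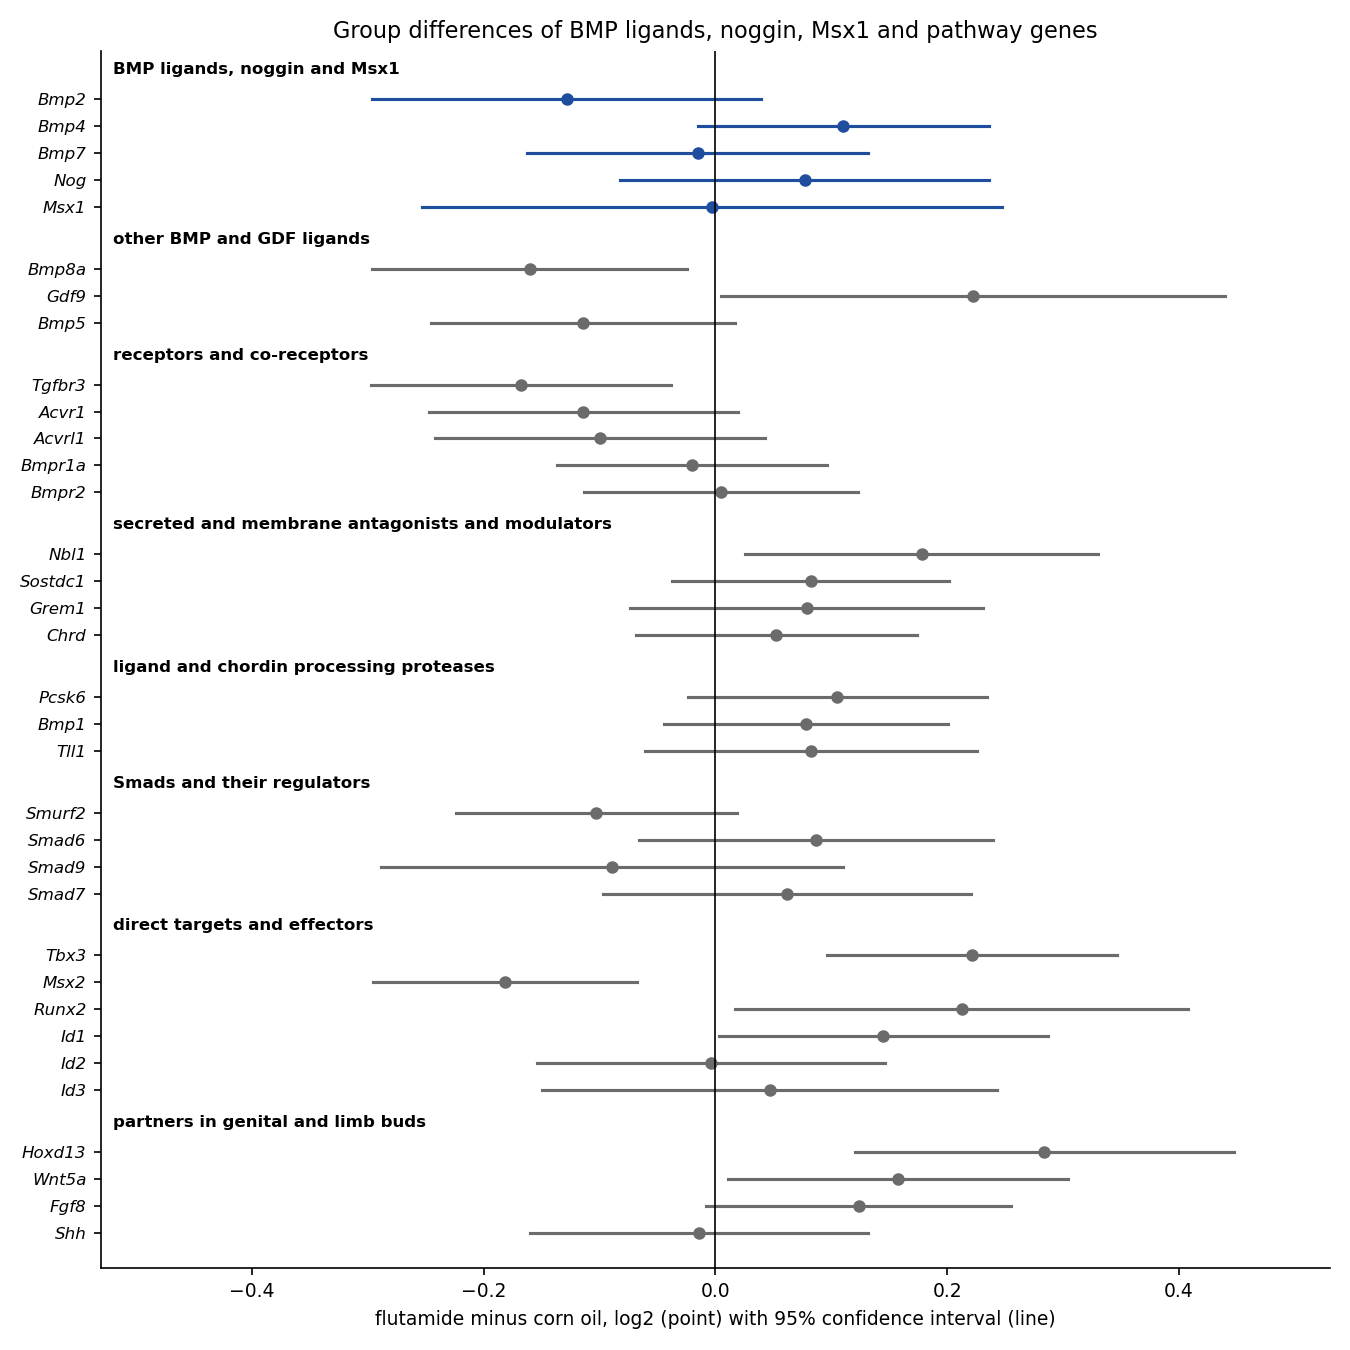
Flutamide minus corn oil difference in log2 (point) with its 95% confidence interval from limma (line) for the 5 genes (blue) and for the named pathway genes by role (grey). The intervals of all 5 genes include 0. Those of 10 pathway genes do not, and none of these passed after adjustment over all genes. The 10 are 14.1% of the 71 measured, beside 9.16% of all genes at an unadjusted limma p under 0.05. Most genes shown were picked for the smallest p of their list.

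The arrays had similar values throughout, with medians within 0.045 of each other and correlations between 0.984 and 0.992. Markers of foreskin tissue had means over 14 samples of 12.3 for Krt10, a keratin of suprabasal epidermis, 9.85 for Krt14 of basal epidermis and 11.1 for the dermal matrix gene Dcn. Each was the brightest of its marker list. The dimmest of the same lists were Ivl at 8.50, Col17a1 at 6.72 and Pdgfra at 7.90. Cell type markers that could move with the 5 genes were read as list means. The 6 basal keratinocyte markers measured were all below 0 in flutamide litters, with list means from 8.31 to 8.47 in corn oil and from 8.24 to 8.42 in flutamide litters. The 7 dermal fibroblast markers were 4 above 0 and 3 below, from 9.35 to 9.5 and from 9.35 to 9.54. The 7 dermal papilla markers were also 4 above and 3 below, from 6.98 to 7.11 and from 6.94 to 7.16, and of 8 hair follicle markers 6 were below 0, from 6.69 to 7.02 and from 6.69 to 6.90. Of 9 smooth muscle and pericyte markers 8 were below 0, from 7.03 to 7.26 and from 6.86 to 7.07, as were all 5 of skeletal muscle, from 6.30 to 6.65 and from 6.09 to 6.58, and all 5 of endothelium, from 7.13 to 7.55 and from 7.08 to 7.34. Of 6 cartilage and bone markers 5 were above 0, from 5.54 to 5.73 and from 5.47 to 5.80. The 3 suprabasal markers measured were 2 above 0 and 1 below, with list means from 10.89 to 10.97 in corn oil and from 10.85 to 10.98 in flutamide litters, the 4 of urothelium 2 above and 2 below, from 5.43 to 5.81 and from 5.61 to 5.86, and the 4 of macrophages 1 above and 3 below, from 5.59 to 5.97 and from 5.52 to 5.80. No marker passed at a limma adjusted p under 0.05. Their part in the values of the 5 genes was not tested beyond the following correlations.

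The 55 correlations of the 5 genes with 11 marker lists between litters, group means removed, gave none that passed. The lowest permutation p adjusted over the 55 was 0.572. Bmp7 with the basal keratinocyte list had r = 0.56 and rho = 0.65 over 14 litters (permutation p = 0.0600 and 0.0254), 0.64 within corn oil and 0.55 within flutamide litters, and 0.47 without the 2 litters farthest from the list's median. Bmp2 with the same list had r = 0.54 and rho = 0.49 (permutation p = 0.0505 and 0.0904), 0.26 and 0.84 within the groups and 0.46 without the farthest 2. Msx1 with smooth muscle and pericyte markers had r = 0.52 and rho = 0.58 (permutation p = 0.0643 and 0.0415), 0.63 and 0.47 within the groups and 0.47 without the farthest 2. Bmp4 with the skeletal muscle list had r = 0.62 and rho = 0.50 (permutation p = 0.0147 and 0.0908), 0.63 and 0.77 within the groups and 0.41 without the farthest 2. Bmp2 with the endothelium list had r = 0.51 and rho = 0.62 (permutation p = 0.0736 and 0.0275). This r was 0.35 within corn oil and 0.77 within flutamide litters, and 0.29 without the farthest 2. For each of these relations the adjusted p of r was 0.572 and that of rho 0.624. Of the 55, 1 had an unadjusted permutation p of r under 0.05.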

How the data were processed

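Foreskin RNA of 14 litters was measured on Affymetrix Gene 1.0 ST arrays; per the labels' protocols it was extracted with a Qiagen RNeasy kit, amplified with a NuGEN Applause kit and biotin-labelled. The authors deposited log2 values of 28826 probe sets, made with RMA per the submitters' processing notes (version not given in the sources used here), and their range fits a log2 scale. RMA removes changes shared by most genes. No detection calls were used.

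Probe sets with 1 symbol (15209) were named from GEO's platform annotation, with symbols updated by gene number to RefSeq for 14471 of 14497 genes; 494 genes had several probe sets and were read from the brightest. Flutamide was set against corn oil in a two-sided limma fit (3.58.1, R 4.3.3) with p-values adjusted over all genes by Benjamini-Hochberg and a threshold of 0.05, tested on simulated data. Intervals are 95%. Exact tests used all 3432 splits of 14 litters into 7 and 7 (smallest p 0.000583), and correlations 100000 permutations of litters within groups.

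The genes, lists and rules were chosen with earlier results of these data known. Named were the 5 genes, the 3 list genes of smallest p per list, a fixed set of pathway genes and the 3 most similar genes, passing over predicted and chemosensory receptor genes. The marker correlations were chosen after seeing the data. The alternatives were other gene summaries, filters, scalings, models, covariates and litters left out. RefSeq promoters (GRCr8) matched 3 of 5 genes; no array coordinates are printed, as their build was not stated. The listed genes without a probe set of their own were not analysed here.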

Additional observations from a re-analysis of the deposited data

Results flagged for a closer look

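In 68 groups of 7 litters, 2 for each gene described, 3 had a litter at one end that stood apart from the rest by Dixon's ratio at its 95% critical value. Chance gives about 1 in 20. None of the 10 groups of Bmp2, Bmp4, Bmp7, Nog and Msx1 was among them. Flutamide replicate 7 had a Sostdc1 value of 8.42, with the next litter at 8.58. Flutamide replicate 5 had a Smad9 value of 4.84, with the next at 5.42. Flutamide replicate 6 had a Wnt5a value of 8.32, with the next at 7.98.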

How the results depend on the processing

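No setting tried gave Bmp2, Bmp4, Bmp7, Nog or Msx1 an adjusted p under 0.05, and Bmp2, Bmp4 and Nog kept their sign in all. With single litters left out, Bmp2 ran from -0.16 to -0.089, Bmp4 from 0.074 to 0.13, Bmp7 from -0.048 to 0.012, Nog from 0.046 to 0.11 and Msx1 from -0.060 to 0.094, Bmpr1a from -0.045 to 0.0040, Bmpr2 from -0.017 to 0.029, Id2 from -0.034 to 0.038, Id3 from -0.0042 to 0.091, Shh from -0.052 to 0.026 and Smad9 from -0.13 to 0.0050. With array SD as a covariate the sign turned for Bmp7 (0.0036), Msx1 (0.021), Bmpr1a (0.014) and Id2 (0.048). With the basal keratinocyte mean as a covariate it turned for Bmp7 (0.041), Bmpr1a (0.00012) and Id2 (0.026). Without corn oil replicate 1 and flutamide replicate 7 together it turned for Bmp7 (0.0098) and Id2 (0.063). Array weights turned Bmpr2 (-0.0022) and Id2 (0.013), and centring turned Bmpr2 (-0.0063). The cause was not tested. The count over all genes, 1, became 2 with eBayes trend and robust and with the array SD covariate, and 0 with the replicate block, the keratinocyte covariate and without those 2 litters; with single litters left out it ran from 0 to 1. The replicate block changed no other call. Deviations of same-numbered samples correlated at -0.072 to 0.15, and 1 of 7 pairs exceeded 0.1, while 2 of 14 samples correlated best with their own number, so the numbers were not taken as pairs. Without corn oil replicate 1 and flutamide replicate 7 together, Acvrl1 was -0.040, Grem1 0.019, Chrd 0.0099, Pcsk6 0.062, Sostdc1 0.13 and Gdf9 0.13. With array SD as a covariate Gdf9 was 0.14, Grem1 0.040 and Chrd 0.027. No named pathway gene passed in any setting (lowest limma adjusted p 0.247), and 0 of 10 gene pairs passed in any. The number of arrays limits the precision.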
